A study of Rattus norvegicus with 6 samples.

Results

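In all, 10 enzymes that add or remove methyl groups on lysine 9 of histone H3 (H3K9) were followed at the RNA level in adipose-derived mesenchymal stem cells of Sprague Dawley rats, which are stromal cells cultured from fat. They were chosen by gene symbol from 21857 rows of a gene count table and comprise 5 demethylases (Kdm3a, Kdm3b, Kdm4a, Kdm4b and Kdm4c) and 5 methyltransferases (Suv39h1, Suv39h2, Setdb1, Ehmt1 and Ehmt2). Of the 10, 9 were found under their own symbol, and Suv39h1 was found as Suv39h1l1, which RefSeq lists as a synonym. All 10 passed the filter on low counts, as did 12298 genes in all. One group of 3 libraries came from cells given 3.432 mM BCAA (the branched chain amino acids leucine, isoleucine and valine) for 12 h, and the other 3 from cells given vehicle for 12 h. Both groups were kept in BCAA-free high-glucose medium with 10% serum and both received 100 µM hydrogen peroxide, an oxidant. The comparison therefore asks which of these transcripts differ with added BCAA under oxidant, and it cannot separate an excess of BCAA from relief of their shortage. No sample without hydrogen peroxide was analysed here, and the mixture of the 3 amino acids is not given in the sources used here.

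Methylation of H3K9 marks silent chromatin. Mono- and dimethylation are laid down in gene-rich chromatin mainly by EHMT1 and EHMT2 (GLP and G9a), which work as a pair, while SUV39H1 and SUV39H2 trimethylate repeats near centromeres and SETDB1 silences retroelements and some genes. The KDM3 enzymes remove mono- and dimethyl groups and the KDM4 enzymes remove di- and trimethyl groups. Both families belong to the Jumonji class, which uses oxygen, iron and 2-oxoglutarate, so the reaction is tied to metabolism. Chromatin marks, protein and enzyme activity were not measured in these libraries.

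Library totals ran from 12802663 to 15654060 counts with BCAA and from 12725344 to 15739731 counts with vehicle. Stromal markers were high in both groups, with all 6 at a mean of 181 CPM or more with BCAA and 182 CPM or more with vehicle (CPM being counts scaled to a common library size). Summed markers of macrophages and leukocytes (5 of 6 found) lay at 180 to 188 CPM with BCAA and 183 to 191 CPM with vehicle. Endothelial markers (4 of 5 found) summed to 2.91 to 4.62 CPM with BCAA and 3.84 to 5.27 CPM with vehicle, and 5 adipocyte markers to 5.77 to 6.65 CPM with BCAA and 3.87 to 5.87 CPM with vehicle. Of 6 smooth muscle and pericyte markers, Acta2 and Tagln fell with BCAA (edgeR adjusted p = 0.00059 and 0.00036), and the summed level was 601 to 629 CPM with BCAA against 880 to 945 CPM with vehicle. The part of this shift in the enzyme values below was not tested. In bulk RNA, fewer cells of a type and less RNA per cell cannot be told apart. Vehicle replicate 1 stood apart on the first principal component (score 26.7, against -15.3 to 0.91 in the other 5 libraries). Mitochondrially encoded genes took 5.60% to 6.24% of counts in the BCAA libraries, 6.58% in vehicle replicate 1 and 4.91% and 4.92% in the other vehicle libraries. Without that library Cnn1, a smooth muscle marker, was called lower too (edgeR adjusted p = 0.019), and Mt-co1 and Mt-nd2 were called higher (edgeR adjusted p = 0.0035 and 0.023), these 3 being named after their values were seen. The median log2 fold change of 13 mitochondrially encoded genes was then 0.16, against -0.05 with all 6 libraries.

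None of the 10 enzymes changed between the groups at an adjusted p of 0.05 (edgeR quasi-likelihood test, Benjamini-Hochberg adjustment over all genes), where the same call was made for 0.228% of all 12298 genes (0.0569% higher and 0.171% lower with BCAA). Counted at an unadjusted p under 0.05 there were 2 of 10, Kdm3a and Kdm3b, beside 11.8% of all genes. With DESeq2, which gave an adjusted p to 8 of the 10 (Suv39h1 and Suv39h2 had none), 0 of those 8 passed, beside 1.75% of the 8217 genes with an adjusted p. At an unadjusted p under 0.05 DESeq2 counted 1 of 10, beside 6.77% of 16570 genes. Those 16570 include genes of low count that the filter before edgeR removed, so the share is not like for like with 11.8%. The BCAA and vehicle libraries did not overlap for 2 of 10 enzymes, both with BCAA above, beside 18.1% of all genes (9.29% with BCAA above and 8.76% with BCAA below). The log2 fold change was above 0 for 7 of 10, beside 50.8% of all genes. The median log2 fold change (BCAA over vehicle) was 0.16 for the 5 demethylases and 0.02 for the 5 methyltransferases, beside 0.0035 over all genes tested. Leaving out vehicle replicate 1, Kdm3a was called higher (adjusted p = 0.022 by edgeR), in a comparison that called 491 genes in place of 28 (1.73% of 12489 genes higher and 2.2% lower with BCAA). In that comparison the log2 fold change was above 0 for 4 of the 5 demethylases and 1 of the 5 methyltransferases, beside 51.5% of all genes.

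**Figure D1:**
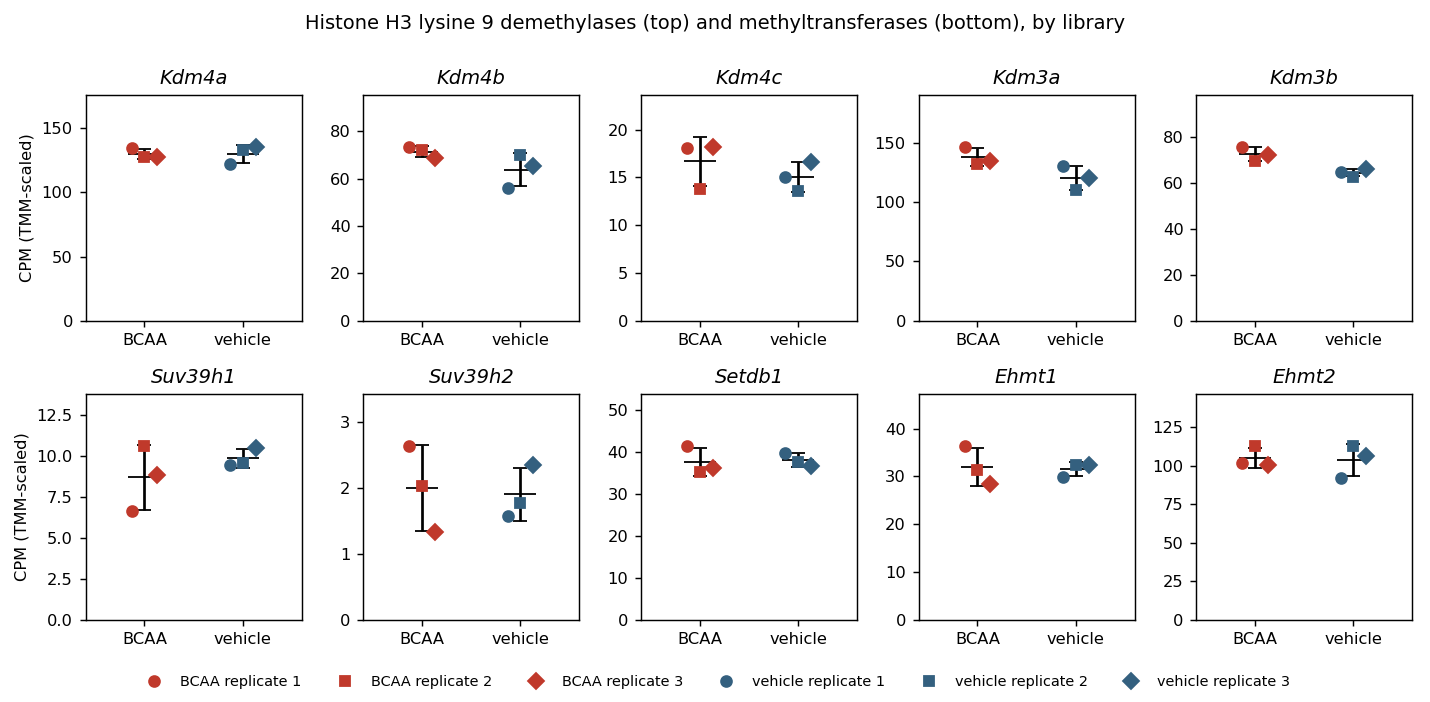
Level of each enzyme (y axes, CPM from 0) in the 3 BCAA and the 3 vehicle libraries, with 1 point per library, the mean as a horizontal line and 1 SD as bars. The BCAA points lie above the vehicle points for Kdm3a and Kdm3b, and the groups overlap for the other 8 enzymes.

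Kdm3a encodes a demethylase of mono- and dimethylated H3K9 that hypoxia induces in many cell types and whose loss makes mice obese. Its level was 146, 132 and 135 CPM in BCAA replicates 1 to 3, against 130, 110 and 120 CPM in vehicle replicates 1 to 3. The lowest BCAA library lay just above the highest vehicle library, which was vehicle replicate 1. As mean ± SD (n = 3 each), the BCAA libraries were at 138 ± 7.51 CPM and the vehicle libraries at 120 ± 10.1 CPM. This is a log2 fold change of 0.20 (SE 0.08), or 1.15-fold with a 95% interval of 1.02-fold to 1.28-fold, and the adjusted p was 0.34 by edgeR. Without vehicle replicate 1 the log2 fold change was 0.26 (SE 0.06). With any of the other 5 libraries left out it was 0.13 to 0.23, and the adjusted p was then 0.47 to 0.73.

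Kdm3b, the close relative of Kdm3a with the same substrates, was at 75.6, 69.8 and 72.3 CPM with BCAA, against 64.8, 62.8 and 65.9 CPM with vehicle. All 3 BCAA libraries were above all 3 vehicle libraries, and the spread within each group was small (72.5 ± 2.93 CPM in BCAA libraries and 64.5 ± 1.59 CPM in vehicle libraries as mean ± SD, n = 3 each). Kdm3b had a log2 fold change of 0.17 (SE 0.07), or 1.12-fold with a 95% interval of 1.01-fold to 1.25-fold (adjusted p = 0.38 by edgeR). The ratio of Kdm3a to Kdm3b counts, which does not depend on how libraries are scaled, was 1.93, 1.89 and 1.87 in BCAA replicates 1 to 3 and 2.01, 1.76 and 1.82 in vehicle replicates 1 to 3. The BCAA ratios lay inside the vehicle range, so no shift between the pair was seen beyond the spread of the libraries.

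Kdm4b encodes a demethylase of di- and trimethylated H3K9 and, like Kdm3a, is a known target of hypoxia-inducible factor 1 in human cells. It was at 73.3, 72.0 and 68.9 CPM with BCAA, against 56.1, 69.8 and 65.5 CPM with vehicle. The vehicle value of replicate 1 was the lowest of the 6, and vehicle replicate 2 lay above BCAA replicate 3. The log2 fold change was 0.16 (SE 0.09; adjusted p = 0.49 by edgeR), and it was 0.08 (SE 0.07) without vehicle replicate 1. With any other library left out it ran from 0.14 (without BCAA replicate 1) to 0.23 (without vehicle replicate 2).

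The promoters of the 3 demethylases with the smallest p-values are shown because hypoxia-inducible factors bind the core letters ACGTG, or that core with G as its first letter. Each line gives the 250 bases before a RefSeq transcription start on assembly GRCr8, written 5′ to 3′ on the gene's strand, with matches to ACGTG or GCGTG on either strand in capitals. For Kdm3a the table holds 2 starts, and the window before the upstream start is at chr4:105233371-105233620 on the minus strand. The Kdm3b window is at chr18:26655437-26655686 on the plus strand and the Kdm4b window at chr9:1245653-1245902 on the plus strand.
Kdm3a: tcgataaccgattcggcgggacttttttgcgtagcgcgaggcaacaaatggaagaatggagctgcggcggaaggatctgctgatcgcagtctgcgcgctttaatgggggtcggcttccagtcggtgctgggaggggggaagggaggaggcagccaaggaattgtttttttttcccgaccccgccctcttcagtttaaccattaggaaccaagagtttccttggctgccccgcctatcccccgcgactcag
Kdm3b: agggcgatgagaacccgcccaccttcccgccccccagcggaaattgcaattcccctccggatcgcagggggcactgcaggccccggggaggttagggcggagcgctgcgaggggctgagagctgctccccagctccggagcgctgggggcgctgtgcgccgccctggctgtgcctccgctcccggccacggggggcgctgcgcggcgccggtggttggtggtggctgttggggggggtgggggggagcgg
Kdm4b: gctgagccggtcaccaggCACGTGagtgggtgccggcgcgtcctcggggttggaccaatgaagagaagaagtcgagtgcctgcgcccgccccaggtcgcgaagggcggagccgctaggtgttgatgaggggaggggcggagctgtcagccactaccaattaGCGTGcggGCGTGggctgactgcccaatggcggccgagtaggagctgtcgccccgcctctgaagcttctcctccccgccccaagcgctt
Kdm3a, 29 bases around the match before its other start (chr4:105233306-105233334, minus strand): ccgggaggctgtGCGTGtcttgtgtgaga

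The Kdm4b window held ACGTG at a palindromic site, where the matches on the 2 strands overlap, and GCGTG at 2 further places. The window before the upstream Kdm3a start and the Kdm3b window held neither, and the window before the other Kdm3a start held GCGTG once, 211 bases before that start. Over all 10 enzymes there were 12 windows, of which 4 held ACGTG (33.3%) and 6 held the form that begins with G (50.0%), on either strand. Of the 10334 windows of tested genes, 21.5% held the first and 43.9% the second. The enzyme windows with ACGTG were those of Kdm4b and Kdm4c and of the methyltransferase genes Ehmt2 and Suv39h2. Both forms contain the letters CG, and the median number of CG per window was 25 for the enzymes and 16 for tested genes. The 2 windows of Suv39h1 overlap each other, so the 12 windows are not all separate. The shares were not tested against each other. The matches are of letters in a short window and say nothing of binding.

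Kdm4a, a demethylase of trimethylated H3K9 and H3K36, was at 135, 128 and 128 CPM with BCAA, against 122, 133 and 135 CPM with vehicle. The BCAA values lay inside the vehicle range, and the fold was 1.00 with a 95% interval of 0.903-fold to 1.11-fold (edgeR adjusted p = 0.997). Changes of more than 1.25-fold in either direction lay outside that interval. The ratio of Kdm4a to Kdm4b counts was 1.84, 1.77 and 1.85 with BCAA and 2.17, 1.90 and 2.07 with vehicle, without overlap, while that of Kdm4a to Kdm4c overlapped (7.02 to 9.28 with BCAA and 8.10 to 9.82 with vehicle). The Kdm4a to Kdm4b ratio was singled out after its values were seen and was given no test.

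Kdm4c, another member of that family, had 217 to 268 counts per library with BCAA and 210 to 213 with vehicle. This was 18.1, 13.7 and 18.2 CPM with BCAA, against 15.04, 13.5 and 16.6 CPM with vehicle. BCAA replicate 2 lay among the vehicle libraries and the other 2 BCAA libraries above them. The log2 fold change was 0.15 (SE 0.14; adjusted p = 0.73 by edgeR), and it ran from 0.07 without vehicle replicate 2 to 0.27 without BCAA replicate 2. It was also 0.08 without BCAA replicate 1 or BCAA replicate 3, and 0.22 without vehicle replicate 3.

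Among the methyltransferases, Ehmt2, which encodes G9a, was at 102, 112 and 100 CPM with BCAA, against 92.0, 112 and 106 CPM with vehicle. Ehmt1, which encodes its partner GLP, was at 36.3, 31.4 and 28.4 CPM with BCAA, against 29.9, 32.3 and 32.4 CPM with vehicle. The groups overlapped for both genes, with log2 fold changes of 0.02 (SE 0.08) for Ehmt2 and 0.03 (SE 0.10) for Ehmt1 (edgeR adjusted p = 0.96 and 0.95). Their 95% intervals were 0.893-fold to 1.15-fold for Ehmt2 and 0.873-fold to 1.19-fold for Ehmt1. The ratio of Ehmt2 to Ehmt1 counts averaged 3.30 ± 0.439 with BCAA and 3.28 ± 0.200 with vehicle (SD, n = 3 each). The signs of both genes turned when vehicle replicate 1 was left out, to -0.06 for Ehmt2 and -0.01 for Ehmt1. That of Ehmt1 also turned without BCAA replicate 1 (-0.08), and that of Ehmt2 without BCAA replicate 2 (-0.04).

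Setdb1, the methyltransferase recruited by KRAB zinc finger proteins through TRIM28, was at 41.4, 35.2 and 36.1 CPM with BCAA, against 39.8, 37.6 and 36.7 CPM with vehicle. The BCAA libraries held both the highest and the lowest value of the 6. The log2 fold change was -0.02 (SE 0.09), with a 95% interval of 0.861-fold to 1.13-fold (adjusted p = 0.96 by edgeR). Its sign was positive (0.01) when libraries were scaled by their totals.

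Suv39h1 and Suv39h2, paralogous enzymes that trimethylate H3K9 in heterochromatin, had the fewest counts of the 10. Suv39h1 had 98, 167 and 113 counts with BCAA, against 132, 151 and 134 with vehicle, and Suv39h2 had 39, 32 and 17 with BCAA, against 22, 28 and 30 with vehicle. In CPM, Suv39h1 was at 6.61, 10.6 and 8.85 with BCAA, against 9.45, 9.58 and 10.5 with vehicle. BCAA replicate 1 was the lowest library for Suv39h1 and BCAA replicate 2 the highest, so the vehicle values fell within the BCAA range. The log2 fold change was -0.18 (SE 0.17; 95% interval 0.687-fold to 1.14-fold; adjusted p = 0.73 by edgeR), and it was -0.02 without BCAA replicate 1 and -0.35 without BCAA replicate 2. RefSeq also lists a pseudogene, Suv39h1-ps1, with which Suv39h1 reads may be shared, so its counts are uncertain.

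Suv39h2 was at 2.63, 2.03 and 1.33 CPM with BCAA, against 1.58, 1.78 and 2.35 CPM with vehicle. The BCAA libraries again held both extremes, with the highest 1.98 times the lowest. Its log2 fold change was 0.09 (SE 0.31; adjusted p = 0.94 by edgeR). The 95% interval, 0.667-fold to 1.70-fold, was the only one of the 10 to reach beyond a 1.5-fold change, so a rise of that size lay within the interval for Suv39h2. For 74.4% of all genes tested the interval lay within 1.5-fold.

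**Figure D2:**
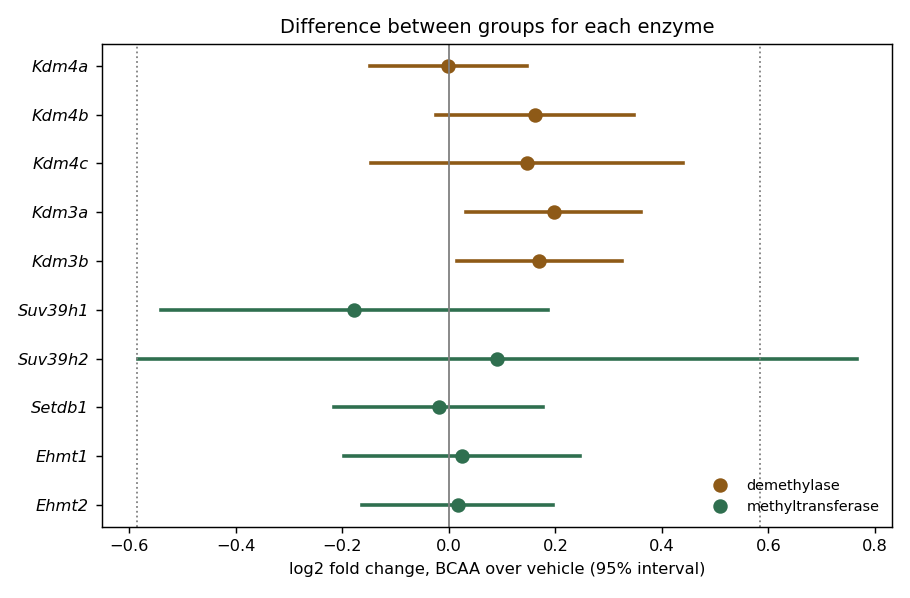
Log2 fold change of each enzyme, BCAA over vehicle (x axis), from edgeR over 3 libraries per group, with 95% intervals as bars and dotted lines at a 1.5-fold change. The intervals of Kdm3a and Kdm3b lie above 0, the other 8 include 0, and that of Suv39h2 is the widest.

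The 10 enzymes did not share one order of libraries. BCAA replicate 1 was the highest library for 6 of the 10 (Kdm4b, Kdm3a, Kdm3b, Suv39h2, Setdb1 and Ehmt1) and the lowest for Suv39h1. Vehicle replicates 1 and 2 were each the lowest for 3 enzymes. Summed over the 5 demethylases, the level was 448, 415 and 422 CPM with BCAA, against 388, 389 and 404 CPM with vehicle. For the 5 methyltransferases the sums were 189, 192 and 175 CPM with BCAA, against 173, 194 and 188 CPM with vehicle. The demethylase sums did not overlap and the methyltransferase sums did. The ratio of demethylase to methyltransferase counts within a library was 2.38, 2.17 and 2.41 with BCAA and 2.25, 2.01 and 2.14 with vehicle, so BCAA replicate 2 fell among the vehicle libraries. These sums weigh genes by their read number and are given as a description, with no test. Levels of different enzymes were not ranked, because transcript lengths were not used here.

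**Figure D3:**
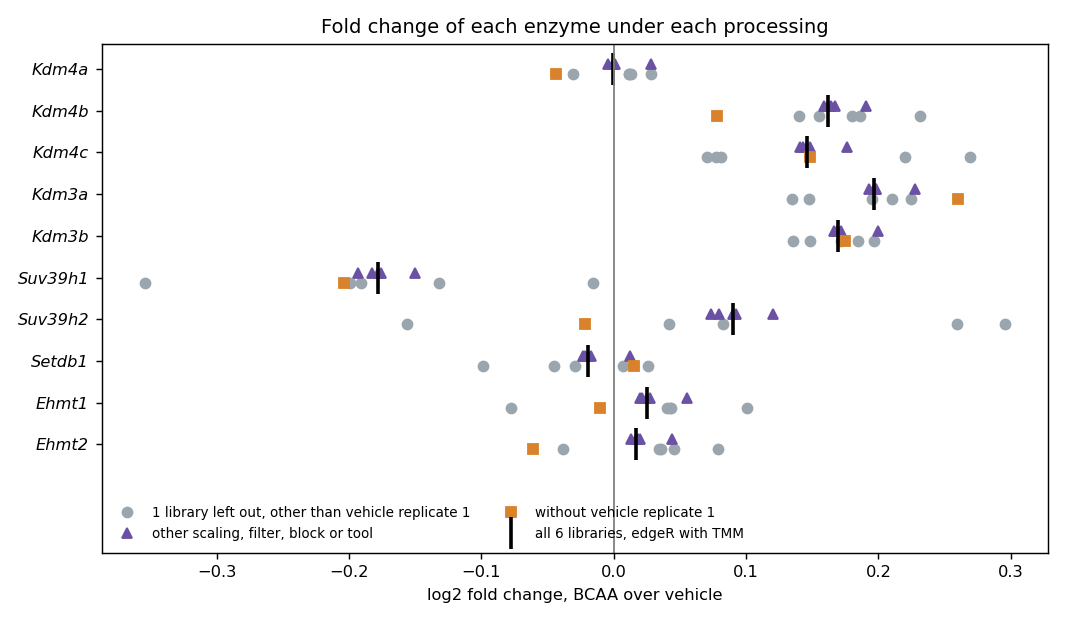
Log2 fold change of each enzyme (x axis) over all 6 libraries (black bars), with 1 library left out (circles, and squares for vehicle replicate 1) and with other scaling, filter, block or tool (triangles). Kdm3a, Kdm3b, Kdm4b and Kdm4c stay above 0 and Suv39h1 below 0 in all 11 alternatives, and the other 5 enzymes lie on both sides of 0.

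The genes whose pattern over the 6 libraries was most like that of Kdm3a were found by the root mean square difference of centred log2 CPM among 8458 tested genes with at least 10 CPM. Among the closest were Ankfy1 (difference 0.019), Nfatc3, a calcium-regulated transcription factor (0.021), Atp7a, a copper transporter (0.022), and Ube2h, a ubiquitin-conjugating enzyme (0.026). The median difference over all those genes was 0.17. For Suv39h1, Slc9a3r2, LOC499770, Rpp25l and Fam43a were among the closest (0.097 to 0.099), beside a median of 0.25. These likenesses describe the 6 libraries and were not tested.

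Other H3K9 enzymes gave no call either. Of 5 other demethylases tested, none passed, 3 were higher and 2 lower in sign, and the median log2 fold change was 0.08. Jmjd1c, which encodes a further protein of the KDM3 family, was at 92.2, 84.9 and 82.8 CPM with BCAA, against 67.2, 59.5 and 72.1 CPM with vehicle, without overlap. Its log2 fold change of 0.39 (SE 0.08; edgeR adjusted p = 0.071) was larger in size than that of any of the 10 enzymes. Kdm7a, a demethylase of H3K9 and H3K27, had a log2 fold change of 0.30 (SE 0.16), and Phf2, a related Jumonji protein, had -0.11 (SE 0.09). Of 3 other methyltransferases tested none passed (median 0.32). Prdm2 had a log2 fold change of 0.26 (SE 0.08; edgeR adjusted p = 0.18), Setdb2 had 0.32 (SE 0.21), and Prdm16, with a mean of 1.10 CPM with BCAA and 0.581 CPM with vehicle, had 0.90 (SE 0.42). Without vehicle replicate 1, Jmjd1c and Prdm2 were called higher (edgeR adjusted p = 0.0062 and 0.037), and with any other library left out neither was.

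Readers and partners of H3K9 methylation comprised 14 tested genes, with none called and a median log2 fold change of 0.03. Atrx, a chromatin remodeller that binds trimethylated H3K9, had the smallest p-value of them (log2 fold change 0.22, SE 0.08; edgeR adjusted p = 0.30), with 66.0, 60.0 and 66.4 CPM with BCAA, against 58.7, 53.1 and 52.8 CPM with vehicle. Fam208a (Tasor), a subunit of the HUSH silencing complex, had a log2 fold change of 0.23 (SE 0.13), and Atf7ip, the partner of SETDB1, had 0.13 (SE 0.08). Leaving out vehicle replicate 1, Atrx was called higher (edgeR adjusted p = 0.039). With any other library left out it was not called (edgeR adjusted p = 0.41 to 0.64).

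Genes for the metabolism of the cofactors gave none called of 20 tested (median 0.01). Fh, fumarate hydratase, which removes an inhibitor of Jumonji enzymes, was at 76.8, 78.6 and 76.7 CPM with BCAA, against 89.7, 89.9 and 93.3 CPM with vehicle. It had a log2 fold change of -0.23 (SE 0.07; edgeR adjusted p = 0.18). Idh2, which makes 2-oxoglutarate in mitochondria, had -0.22 (SE 0.08), and Ahcy, which clears the product that inhibits methyltransferases, had -0.21 (SE 0.08). The groups did not overlap for 4 of the 20 genes, these 3 among them, beside 18.1% of all genes. None of the 3 passed the threshold with all 6 libraries. Without vehicle replicate 1 the same 3 genes were called lower (edgeR adjusted p = 0.036 to 0.043). With any other library left out none of them was called (edgeR adjusted p = 0.36 to 0.73).

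Enzymes and subunits for other histone lysine marks were also uncalled. For H3K4, none of 9 passed (median 0.17), with Kdm5b at 0.19 (SE 0.06), Kdm5a at 0.19 (SE 0.07) and Kmt2c at 0.40 (SE 0.18). For H3K27, none of 6 passed (median 0.14), a list that holds Eed and Suz12, noncatalytic subunits of the methyltransferase complex PRC2. Kdm6a, an X-linked H3K27 demethylase, was at 71.7, 70.1 and 69.1 CPM with BCAA, against 55.6, 52.1 and 59.7 CPM with vehicle, a log2 fold change of 0.33 (SE 0.08; edgeR adjusted p = 0.091, and 0.014 without vehicle replicate 1). Ezh1 and Kdm6b had 0.13 (SE 0.08) and 0.14 (SE 0.10). For H3K36, H3K79 and H4K20, none of 10 passed (median 0.08), with the H3K79 methyltransferase Dot1l at 0.31 (SE 0.10), Kdm2a at 0.21 (SE 0.07) and Nsd2 at 0.19 (SE 0.08). Without vehicle replicate 1, the H3K4 demethylase Kdm5a was called higher and the H4K20 methyltransferase Kmt5a, named after its value was seen, was called lower (edgeR adjusted p = 0.039 and 0.0089).

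Among 15 hypoxia-induced genes, chosen because Kdm3a and Kdm4b are such targets, Ndrg1 rose with BCAA and 14 did not pass (median log2 fold change 0.08). Ndrg1, a stress-responsive gene, was at 171, 177 and 180 CPM with BCAA, against 133, 140 and 128 CPM with vehicle (log2 fold change 0.40, SE 0.07; edgeR adjusted p = 0.018). Its call was lost on leaving out any library but vehicle replicate 1, with adjusted p from 0.060 to 0.17. The hexokinase gene Hk2 had 0.28 (SE 0.08) and the peptide hormone gene Adm had -0.24 (SE 0.07). Of the 15 genes, 11 were above 0 and 4 below, beside 50.8% of all genes above 0. An unadjusted p under 0.05 (edgeR) was reached by 7 of the 15, beside 11.8% of all genes. The groups did not overlap, in either direction, for 8 of the 15, beside 18.1% of all genes. Adm and Car9, the second named after its value was seen, were in both counts and were lower with BCAA. The others in these counts were higher. Car9 had a log2 fold change of -0.77 (SE 0.30), at a mean of 1.46 CPM with BCAA and 2.48 CPM with vehicle. Without vehicle replicate 1, Hk2 and the mitophagy receptor gene Bnip3, the second named after its value was seen, were called higher too (edgeR adjusted p = 0.047 and 0.0036). Of 12 proliferation genes none passed (median 0.14), with Mki67 at 0.61 (SE 0.16), Top2a at 0.34 (SE 0.12) and Mcm5 at 0.49 (SE 0.17). Mki67, the proliferation antigen Ki-67, was called higher without vehicle replicate 1 (edgeR adjusted p = 0.0025). Nat8l, the gene of N-acetylaspartate synthase, was at 75.5, 80.2 and 70.9 CPM with BCAA, against 45.8, 58.8 and 62.3 CPM with vehicle (log2 fold change 0.44, SE 0.10; edgeR adjusted p = 0.094, and 0.015 without vehicle replicate 1). With any other library left out Nat8l was not called (edgeR adjusted p = 0.11 to 0.37).

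**Figure D4:**
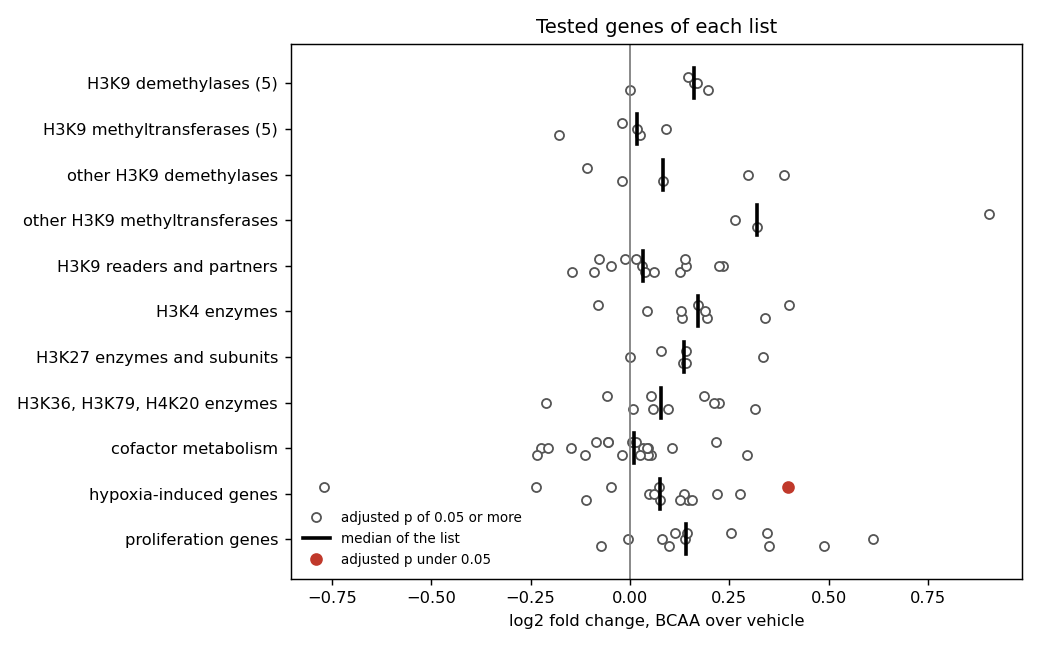
Log2 fold change of every tested gene of 11 lists, BCAA over vehicle (x axis), with the list median as a black bar and genes at an adjusted p under 0.05 filled. Ndrg1 is the filled gene, and the medians of the 5 H3K9 demethylases and 5 H3K9 methyltransferases lie at 0.16 and 0.02.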

How the data were processed

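Per the labels' protocols, RNA was extracted with TRIzol and libraries were prepared with the NEBNext Ultra kit. The deposited table holds the authors' raw read counts per gene symbol for 6 libraries, each library in its own column. The submitters' processing notes name Trimmomatic, FastQC, STAR, HTSeq and, as genome build, rn6. Versions, annotation and strand setting: not given in the sources used here. Hence reads of overlapping genes cannot be assigned with certainty.

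Groups were taken from the library titles, which the column names match. The smallest chi-square per degree of freedom between 2 libraries was 2.65, so no column was a copy of another. This value cannot tell libraries made from the same RNA from libraries of separate samples. The labels do not say whether replicates were separate cultures or animals, and the spread behind the p-values may be technical. Counts were tested with edgeR 4.0.16 (R 4.3.3), with TMM scaling, filterByExpr (minimum count 10, minimum total 15), a robust quasi-likelihood fit on the group alone and Benjamini-Hochberg adjustment over 12298 genes, called under 0.05. These genes hold 99.9% of counts. The standard error is the log2 fold change divided by the square root of F, and intervals use the t distribution of the fit. Counts were also simulated for BCAA against vehicle with 12298 genes, of which 50 were changed at each fold. On these, edgeR called 16% of genes changed 1.25-fold, 63.3% at 1.5-fold and 84% at 2-fold, and it called 10 unchanged genes. The 95% intervals held the true value for 95.2% of genes.

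The 10 enzymes and the other lists were chosen with earlier results of these data known. Of 149 list genes in 18 lists, 146 were found and 136 passed the filter and were tested. The genes named are the 10 enzymes, Nat8l, called genes and the 3 smallest p-values of each list (marker and mitochondrial lists, which the rule also covered, are given as sums and calls only), and the 5 genes most like Kdm3a and Suv39h1 in pattern (log2 CPM with a prior count of 2), of which 1 for each is not reported here. Promoter sequences are from RefSeq, assembly GRCr8, matched by symbol for all 10 enzymes, and no rn6 coordinates were used. Alternatives were DESeq2 1.42.0, no filter, no TMM factors, a non-robust fit, the replicate number as a block, and each library left out.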

Additional observations from a re-analysis of the deposited data

How the results depend on the processing

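Over all genes, 28 calls of 12298 became 124 of 16570 with no filter on low counts, 144 under DESeq2 (without that filter, and with adjusted p for 8217 genes) and 6 with the replicate number as a block, and ran from 7 to 491 with 1 library left out, the highest without vehicle replicate 1. Without the other vehicle libraries there were 10 (replicate 2) and 12 (replicate 3), and without a BCAA library 7 or 8. Among the 10 enzymes, the count called ran from 0 to 1 with 1 library left out and was 0 in every other alternative. The labels do not say that equal numbers pair libraries, so the numbers were not taken as pairs. Deviations from the group mean correlated at -0.07, 0.11 and -0.15 for numbers 1 to 3. For libraries of unlike number the correlations ran from -0.08 to 0.15. Deviations within a group of 3 are tied to each other, so these values cannot decide whether libraries were paired. The block called none of the 10 enzymes. The demethylase median ran from 0.13 to 0.20 with 1 library left out, and the methyltransferase median from -0.078 (without BCAA replicate 1) to 0.046. Kdm4a turned to 0.0011 without the filter, 0.028 without TMM factors and 0.00011 with the block, and ran from -0.044 to 0.028 with 1 library left out. Setdb1 turned to 0.012 without TMM factors and ran from -0.099 to 0.026 with 1 library left out, Suv39h2 from -0.16 to 0.30, Ehmt1 from -0.078 to 0.10 and Ehmt2 from -0.061 to 0.079. Suv39h1 ran from -0.35 to -0.016 and Kdm4c from 0.071 to 0.27, without a change of sign. The cause was not tested. The non-robust fit turned no sign. Counting error weighs most on Suv39h2, which had the fewest counts of the 10 enzymes (17 to 39 per library with BCAA and 22 to 30 with vehicle).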

Other observations

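Grouped by role after the values were seen, and so given no test, the 41 tested enzymes of histone lysine methylation over all marks included 33 with a log2 fold change above 0 (80.5%), beside 50.8% of all genes. Their median was 0.13. The 17 demethylases had 13 above 0 and a median of 0.17, and the 24 methyltransferases had 20 above 0 and a median of 0.09. None was called. The BCAA libraries lay above the vehicle libraries, without overlap, for 15 of the 41 and below them for 0, beside 9.29% and 8.76% of all genes. The 23 enzymes of marks other than H3K9 (leaving out the subunit genes Eed and Suz12) had 20 above 0, so the lean was not limited to H3K9 enzymes. Without vehicle replicate 1, a count added after the data were seen, 30 of the 41 were above 0 (beside 51.5% of all 12489 genes), with a median of 0.09. In that comparison 5 were called higher and 1 lower, beside 1.73% and 2.2% of all genes.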
